A study of Mus musculus with 27 samples.

Results

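The 10 genes described here are members of the galectin and S100 families, or are bound by them, and were followed across the transcriptomes of murine bone marrow-derived macrophages (BMDMs). They were chosen by name: Lgals1, Lgals3, Lgals8, Lgals9 and Lgals3bp on the galectin side, and S100a4, S100a6, S100a8, S100a10 and S100a11 on the S100 side. The choice was made with earlier results of these data known. Counts of called members beside all-gene shares are therefore a description. Those shares also cover genes with fewer counts than most members. The table held 50559 genes, of which 13614 passed the filter on low counts, and all 10 chosen genes passed it. BMDMs came from female C57BL/6 mice, either wild-type (WT) or lacking TRAP1 (KO), aged 3 to 4 months per the labels. Cells were left unpolarized (Mφ, M0 in the labels) or were turned into M2-like cells with 10 ng/mL IL-4 for 24 h. They then spent 48 h in control DMEM or in medium conditioned by malignant peripheral nerve sheath tumor cells (MPNST-CM), renewed after 24 h. The study's methods describe 3 murine MPNST lines (sMPNST, NPCIS and cisMPNST) and do not say which conditioned the medium of these samples. Its results treat NPCIS and cisMPNST as additional models beside MPNST-CM, which leaves sMPNST as the likely source. All macrophages were grown out in a differentiation medium that held L929 fibroblast-conditioned medium. TRAP1 is the mitochondrial chaperone of the HSP90 family. The 8 groups were compared over the 24 libraries of the batch that the labels number 1, with 3 per group (n = 3 for every group value below), and the labels do not say what a batch stands for. The labels do not say whether libraries of a group came from separate mice or cultures, so the p-values below measure the spread between libraries, which may be technical.

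Galectins are small lectins that bind β-galactosides on glycoproteins and glycolipids, both inside the cell, where they detect damaged vesicles, and outside it, after secretion without a signal peptide. S100 proteins are EF-hand calcium sensors that form dimers and bind annexins, cytoskeletal proteins and receptors, and several are released as danger signals. Macrophages are a rich source of galectin-3, and the S100a8/S100a9 heterodimer calprotectin is abundant in neutrophils and monocytes and scarce in mature macrophages. Both families are commonly read as products of tumor-associated macrophages.

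Libraries of batch 1 held 7037684 to 9089792 counts, and values are given as CPM (counts scaled to library size) after TMM scaling, which sets a library's effective size from most of its genes. Trap1 had no count in any of the 12 KO libraries and gave 10.4 to 18.8 CPM in each of the 12 WT ones. Xist, the RNA of the inactive X chromosome in female cells, ran from 254 to 504 CPM in WT cells but reached at most 1.14 CPM in batch 1 KO cells, although the labels give female mice for both genotypes. KO against WT therefore cannot be told apart from this Xist difference in batch 1. Of the 3 libraries of batch 2, the KO libraries carried Xist (293 and 422 CPM), and M2 KO libraries labelled replicate 4 stood apart from their groups, so batch 2 values are given beside the others at the end. The levels of most members in these M2 libraries leaned towards those of the other medium, so whether their medium labels are exchanged cannot be told from the labels and was not tested, and fits that include batch 2 take the labels as given. All 8 macrophage markers, Adgre1, Csf1r and Lyz2 among them, were detected in every group. Of the 17 neutrophil markers, the granule genes Ngp and Camp did not exceed 0.777 and 0.300 CPM, while the list's summed level ran from 76.0 to 381 CPM over the libraries and rested on Mmp8 (24.0 to 314 CPM) and Mmp9 (1.38 to 246 CPM). The 8 fibroblast and the 6 Schwann lineage markers summed to at most 8.56 and 10.8 CPM, with Lum and Ngfr at 0 throughout. The 7 lymphocyte markers summed to at most 0.661 CPM. The 6 monocyte markers summed to 160 to 651 CPM and the 6 dendritic cell markers to 20.6 to 1521 CPM, the latter mostly Itgax, and the 8 genes of the IL-4 response to 846 to 889 CPM in WT Mφ and 3321 to 3372 CPM in WT M2 cells in DMEM. Between these groups, 6 of the 8 were higher and 1 lower in WT M2 cells, and 5 higher and 3 lower in KO M2 cells. The part of these lists in the values below was not tested. In these bulk libraries, fewer cells of one kind and less RNA per cell cannot be told apart.

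Upstream sequence was found for 8 of the 10 genes in a RefSeq promoter table (GRCm38.p6, so these coordinates are not those of the mm39 counts), and not for Lgals1 and S100a10. The 250 bases before the transcription start were searched on both strands for ACGTG (a form of the core bound by hypoxia-inducible factors), TGANTCA (AP-1), TGACNNNGC (antioxidant response element), TTC and GAA with 4 bases between them (STAT6, the factor downstream of IL-4), AANNGAAA (the interferon regulatory factor core) and GAAA repeated after 2 bases (interferon-stimulated response element, in which the former motif always lies). Other forms of the hypoxia core, such as GCGTG, were not searched and are not marked. Of these windows, 4 held a match and are shown because those genes are among the members with the larger changes below, with the matched letters in capitals.
Lgals3 (chr14:47373610-47373859, plus strand): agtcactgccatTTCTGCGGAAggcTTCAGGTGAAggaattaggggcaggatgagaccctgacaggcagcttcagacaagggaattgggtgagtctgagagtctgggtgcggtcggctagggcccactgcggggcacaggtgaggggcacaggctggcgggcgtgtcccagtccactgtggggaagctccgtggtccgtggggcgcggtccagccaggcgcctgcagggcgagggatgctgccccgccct
Lgals9 (chr11:78984925-78985174, minus strand): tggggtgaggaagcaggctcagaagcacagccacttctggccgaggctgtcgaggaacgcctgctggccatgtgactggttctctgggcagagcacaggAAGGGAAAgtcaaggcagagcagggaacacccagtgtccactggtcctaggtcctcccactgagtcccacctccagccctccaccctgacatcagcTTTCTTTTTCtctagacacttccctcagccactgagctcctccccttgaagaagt
Lgals3bp (chr11:118401960-118402209, minus strand): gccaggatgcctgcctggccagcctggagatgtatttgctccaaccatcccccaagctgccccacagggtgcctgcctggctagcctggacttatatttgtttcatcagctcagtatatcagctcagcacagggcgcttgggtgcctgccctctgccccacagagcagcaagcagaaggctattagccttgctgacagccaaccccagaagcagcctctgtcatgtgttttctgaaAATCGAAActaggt
S100a11 (chr3:93520246-93520495, plus strand): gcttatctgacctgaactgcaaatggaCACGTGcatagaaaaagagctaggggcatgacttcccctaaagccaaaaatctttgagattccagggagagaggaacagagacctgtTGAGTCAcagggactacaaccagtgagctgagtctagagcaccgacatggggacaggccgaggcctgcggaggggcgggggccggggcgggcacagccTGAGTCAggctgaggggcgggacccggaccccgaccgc
The capitals in Lgals3 mark 2 STAT6 matches, which begin 238 and 225 bases before the start. In Lgals9 they mark an interferon regulatory factor core at 151 bases and an interferon-stimulated response element at 55 bases, and in Lgals3bp a core at 14 bases. In S100a11 they mark 2 overlapping matches of the searched form of the hypoxia core, on opposite strands, and AP-1 matches at 136 and 38 bases. Among 32851 promoters of the same length, 5.85% held the STAT6 motif, 21.3% the interferon regulatory factor core, 2.98% the interferon-stimulated response element, 16.6% the searched form of the hypoxia core, 6.75% the AP-1 motif and 10.2% the antioxidant response element. None of these motifs was found in the windows of Lgals8, S100a4, S100a6 and S100a8, and the antioxidant response element was in none of the 8. A match is a stretch of letters and not evidence of binding.

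Members of both families rose in MPNST-CM in WT Mφ, and in the other 3 backgrounds some rose and some fell. In WT Mφ, 6 of the 10 genes rose (Lgals1, Lgals3, S100a4, S100a6, S100a10 and S100a11) and none fell, where 21.2% of all tested genes passed the test, 11.3% upwards and 9.96% downwards. In KO Mφ, 3 rose (S100a6, S100a10 and S100a11) and Lgals3 fell, against 14.8% and 18.1% of all genes (32.9% together). In WT M2 cells, 5 rose (Lgals1, Lgals8, Lgals9, Lgals3bp and S100a11) and 2 fell (Lgals3 and S100a8), against 11.2% and 13.3% (24.5% together). In KO M2 cells, 5 rose (Lgals8, Lgals9, Lgals3bp, S100a6 and S100a11) and 3 fell (Lgals3, S100a4 and S100a8), against 16.7% and 20.2% (36.8% together). S100a11 was the member that rose in all 4. The members' median log2 fold change was 0.28 in WT Mφ, 0.082 in KO Mφ, 0.088 in WT M2 and 0.27 in KO M2, beside medians over all tested genes between -0.042 and -0.012. Calls here and below are edgeR's quasi-likelihood tests on the counts, with Benjamini-Hochberg adjustment over all 13614 genes and a threshold of 0.05, and errors of log2 fold changes are standard errors. With the 3 libraries of batch 2 in the fit, the counts of called members fell from 7 to 2 in WT M2 cells and from 8 to 1 in KO M2 cells. Batch 2 held no WT M2 library, so in WT M2 cells the compared libraries stayed the same and only the shared fit changed.

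**Figure D1:**
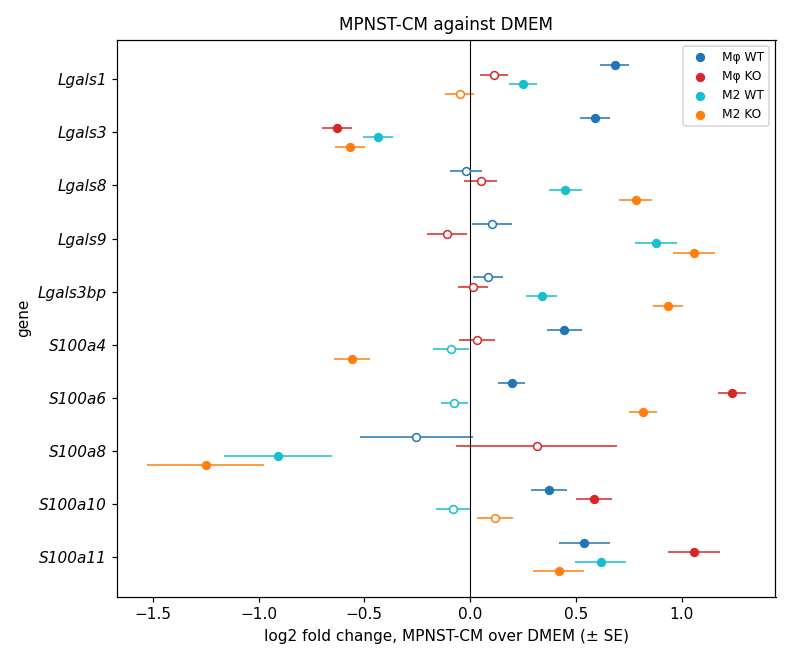
log2 fold change of each gene in MPNST-CM over DMEM (x axis, ± SE) for the 10 genes (y axis) in the 4 backgrounds; filled points passed the threshold and open points did not. S100a11 lies right of 0 in all 4 backgrounds, while Lgals3 lies right of 0 in WT Mφ (0.59) and left of it in the other 3.

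The response to MPNST-CM differed between genotypes for 5 members in Mφ and for 5 in M2 cells, by the interaction of genotype and medium. In Mφ, S100a6 and S100a11 rose more in KO cells, while Lgals1, Lgals3 and S100a4 rose less or fell. Over all genes, 8.17% passed the threshold upwards and 11.5% downwards in that test (19.7% together). In M2 cells, S100a6, Lgals3bp and Lgals8 rose more in KO cells and Lgals1 and S100a4 rose less or fell, beside 9.36% and 10.8% of all genes (20.2% together). Lgals1, S100a4 and S100a6 differed in the same direction in both cell types. In M2 cells none of the 5 differences passed once batch 2 was in the fit, and in Mφ 2 did. The response also differed between cell types of one genotype, for 6 members in WT (Lgals8 and Lgals9 higher, Lgals1, Lgals3, S100a4 and S100a10 lower in M2 cells) beside 5.23% and 6.91% of all genes (12.1% together). In KO cells it differed for 8 members (Lgals8, Lgals9 and Lgals3bp higher, and all 5 S100 genes lower in M2 cells) beside 5.48% and 6.01% (11.5% together). The KO call of S100a8 was lost when any of 6 of the 12 KO libraries was left out (adjusted p 0.056 to 0.141), and the WT call of S100a10 without M2 replicate 4 in DMEM (adjusted p = 0.071). With scaling by total counts the calls of S100a10 in both genotypes, Lgals1 in WT and S100a11 in KO were lost (adjusted p 0.0593 to 0.115). With batch 2, 1 and 2 members passed these tests. The comparisons of medium, genotype and cell type share their groups and are not independent of each other.

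Between genotypes within one medium, some members were higher and others lower in KO cells. In DMEM, KO Mφ held more Lgals3, Lgals9 and Lgals3bp and less S100a4, S100a6 and S100a8 than WT Mφ (3 higher and 3 lower, beside 8.64% and 7.97% of all genes, 16.6% together). In DMEM, KO M2 cells held more Lgals9 and Lgals3bp and less Lgals3, S100a4, S100a6 and S100a10 (2 higher and 4 lower, beside 8.56% and 7.87%, 16.4% together). In MPNST-CM, KO Mφ held more Lgals8, Lgals3bp and S100a6 and less Lgals1, Lgals3, S100a4 and S100a8 (3 higher and 4 lower, beside 19.1% and 19.2%, 38.2% together). In MPNST-CM, KO M2 cells held more Lgals8, Lgals9, Lgals3bp and S100a6 and less Lgals1, Lgals3 and S100a4 (4 higher and 3 lower, beside 17.2% and 16.8%, 34% together). Lgals3bp was higher and S100a4 lower in KO cells in all 4 settings. The members' median log2 fold change was -0.15 and -0.21 in DMEM (Mφ and M2) and 0.10 and -0.18 in MPNST-CM, beside all-gene medians of 0.017 to 0.053. With batch 2 in the fit, 1 member was called in DMEM in each cell type, 4 in Mφ and 2 in M2 cells in MPNST-CM. Batch 2 held no Mφ library in MPNST-CM, so in that setting only the shared fit changed.

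**Figure D2:**
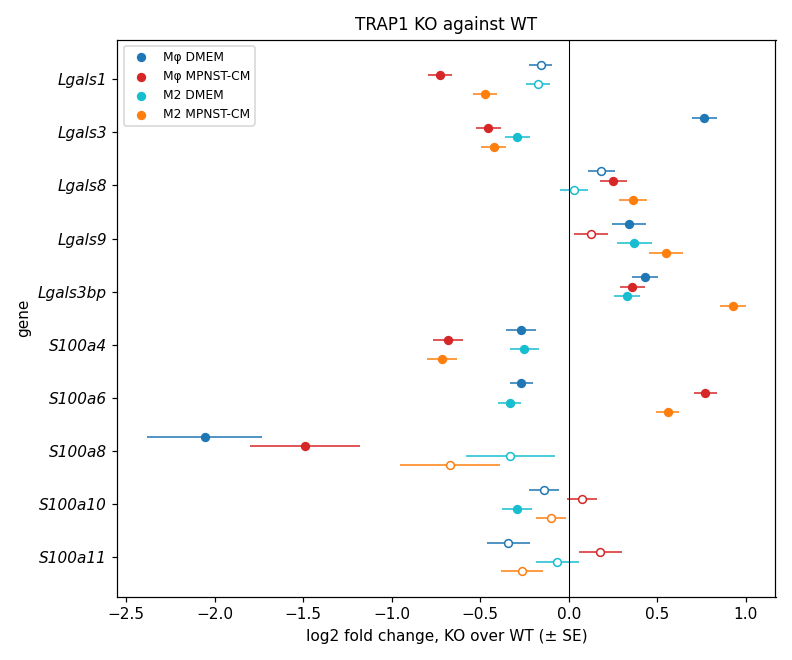
log2 fold change of each gene in TRAP1 KO over WT cells (x axis, ± SE) for the 10 genes (y axis) in the 4 combinations of cell type and medium; filled points passed the threshold. S100a6 changes side between DMEM (-0.27 in Mφ) and MPNST-CM (0.77 in Mφ), while S100a4 stays left of 0 and Lgals3bp right of 0 in all 4.

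M2 cells differed from Mφ in both families. In DMEM, Lgals3, S100a6, S100a8, S100a10 and S100a11 were higher and Lgals8, Lgals9 and Lgals3bp lower in M2 cells of either genotype, which gave 5 higher and 3 lower in each. Over all genes, 19.1% were higher and 18.1% lower in WT (37.2% together), and 15.6% and 12.9% in KO (28.5% together). In MPNST-CM, WT M2 cells held more Lgals3 and S100a11 and less Lgals1, Lgals9, Lgals3bp and S100a4 (2 higher and 4 lower, beside 11.9% and 13%, 24.9% together). In MPNST-CM, KO M2 cells held more Lgals3, Lgals3bp and S100a11 and less S100a4 and S100a6 (3 higher and 2 lower, beside 6.71% and 4.47%, 11.2% together). TMM scaling set M2 against Mφ higher than scaling by total counts did, by 0.27 log2 units in DMEM in WT and 0.18 in KO, and by 0.12 and 0.062 in MPNST-CM. With total counts the difference in DMEM went the other way for S100a6 in WT (-0.038) and KO (-0.011) cells and for Lgals1 in WT cells (-0.17). A further 10 of the 160 member values, which passed under neither scaling, also changed sign. With batch 2 in the fit, 4 members were called in WT and 1 in KO cells in DMEM, and 2 in each genotype in MPNST-CM. Batch 2 held no WT library in MPNST-CM, so in that setting only the shared fit changed. In the 2 groups of WT cells in MPNST-CM fitted alone, 2 members passed, Lgals3 and S100a11. The calls of Lgals1, Lgals9, Lgals3bp and S100a4 were lost in that fit.

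**Figure D3:**
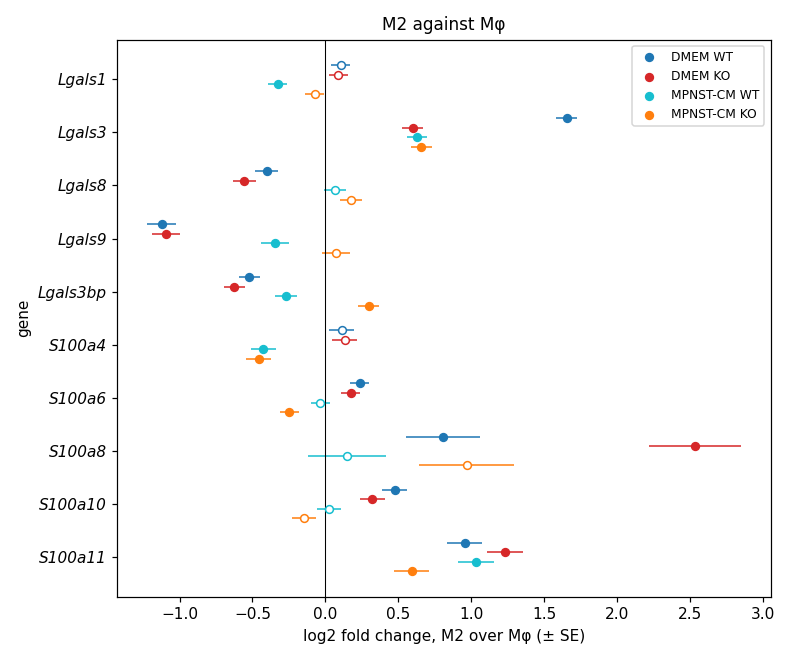
log2 fold change of each gene in M2 over Mφ cells (x axis, ± SE) for the 10 genes (y axis) in the 4 combinations of medium and genotype; filled points passed the threshold. Lgals3 and S100a11 lie right of 0 in all 4, and Lgals9 moves from -1.12 in WT cells in DMEM to 0.074 in KO cells in MPNST-CM.

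Lgals1 encodes galectin-1, a homodimeric galectin that binds T cell glycans and is known for dampening immune responses and for endothelial binding. In WT Mφ it stood at 1414, 1305 and 1346 CPM in DMEM and at 2347, 1994 and 2185 CPM in MPNST-CM, so that the groups did not overlap, a rise of 1.61-fold (log2 fold change 0.68 ± 0.067, adjusted p = 2.53e-08). In KO Mφ it stood at 1174, 1194 and 1273 CPM in DMEM and at 1322, 1329 and 1286 CPM in MPNST-CM, with a log2 fold change of 0.11 ± 0.067 that did not pass (adjusted p = 0.214, 95% interval -0.024 to 0.25). The KO response was smaller than the WT one (interaction -0.57 ± 0.095, adjusted p = 5.32e-05). In M2 cells the pattern repeated at a smaller scale. WT M2 cells held 1465, 1472 and 1435 CPM in DMEM and 1659, 1773 and 1767 CPM in MPNST-CM (0.25 ± 0.067, adjusted p = 0.00627). KO M2 cells held 1241, 1355 and 1276 CPM in DMEM and 1239, 1222 and 1279 CPM in MPNST-CM (-0.05 ± 0.067, adjusted p = 0.606), and the difference between genotypes was -0.30 ± 0.094, adjusted p = 0.0245. That last call was lost without KO replicate 1 or 2 or WT replicate 2 or 3 in MPNST-CM (adjusted p 0.0553 to 0.0607). In MPNST-CM, Lgals1 was 1.66-fold lower in KO than in WT Mφ (-0.73 ± 0.067, adjusted p = 1.56e-09) and 1.39-fold lower in KO than in WT M2 cells (-0.48 ± 0.067, adjusted p = 2.73e-06). In DMEM the genotypes did not differ by the test in Mφ (-0.16 ± 0.067, adjusted p = 0.111) or M2 cells (-0.18 ± 0.067, adjusted p = 0.0744), although the former passed with scaling by total counts (adjusted p = 0.00693) and the latter without KO replicate 2 (adjusted p = 0.0441). In the order of group means, the 6 lowest groups, from 1213 to 1457 CPM, did not differ between neighbours, and WT M2 and then WT Mφ in MPNST-CM stood above them. The step between these WT groups was lost when they were fitted alone.

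Lgals3 encodes galectin-3, the chimera-type galectin of macrophages, which lines damaged lysosomes and is secreted into tumor stroma. It was the member called in all 12 pairwise comparisons, 6 times upwards and 6 times downwards. WT Mφ in DMEM held the least of all groups, at 4178, 4131 and 4106 CPM. They did not differ by the test from KO Mφ in MPNST-CM, the next lowest group (adjusted p = 0.148). MPNST-CM took WT Mφ to 6964, 5663 and 6074 CPM, 1.51-fold higher (0.59 ± 0.071, adjusted p = 7.18e-07). KO Mφ went the other way, from 6993, 7164 and 6935 CPM in DMEM to 4520.0, 4658 and 4462 CPM in MPNST-CM, 1.55-fold lower (-0.63 ± 0.071, adjusted p = 5.92e-08). The 2 responses differed by -1.22 ± 0.10 on the log2 scale (adjusted p = 6.37e-10). The genotype order thus turned with the medium: KO Mφ stood 1.70-fold above WT Mφ in DMEM (0.76 ± 0.071, adjusted p = 9.5e-09) and 1.37-fold below them in MPNST-CM (-0.46 ± 0.071, adjusted p = 1.05e-05).

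The highest Lgals3 levels were in M2 cells in DMEM. WT M2 cells in DMEM held 12891, 12794 and 13393 CPM, 3.15-fold more than WT Mφ (1.65 ± 0.073, adjusted p = 4.39e-16), and KO M2 cells held 10349, 11511 and 10076 CPM, 1.51-fold more than KO Mφ (0.60 ± 0.071, adjusted p = 1.87e-07). In MPNST-CM, WT M2 cells held 9358, 9901 and 9633 CPM and KO M2 cells 7126, 7489.9 and 6914 CPM. M2 cells thus lost Lgals3 in MPNST-CM in WT (-0.44 ± 0.071, adjusted p = 3.3e-05) and in KO (-0.57 ± 0.071, adjusted p = 2.8e-07), and the genotypes did not differ by the test in this loss (-0.13 ± 0.10, adjusted p = 0.406). WT Mφ and WT M2 cells responded in opposite directions, a difference of -1.03 ± 0.10 (adjusted p = 8.51e-08), whereas KO Mφ and KO M2 cells did not differ by the test (0.06 ± 0.10, adjusted p = 0.826, 95% interval -0.15 to 0.27). KO M2 cells held less Lgals3 than WT M2 cells in DMEM (-0.29 ± 0.071, adjusted p = 0.00479) and in MPNST-CM (-0.42 ± 0.071, adjusted p = 3.15e-05).

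**Figure D4:**
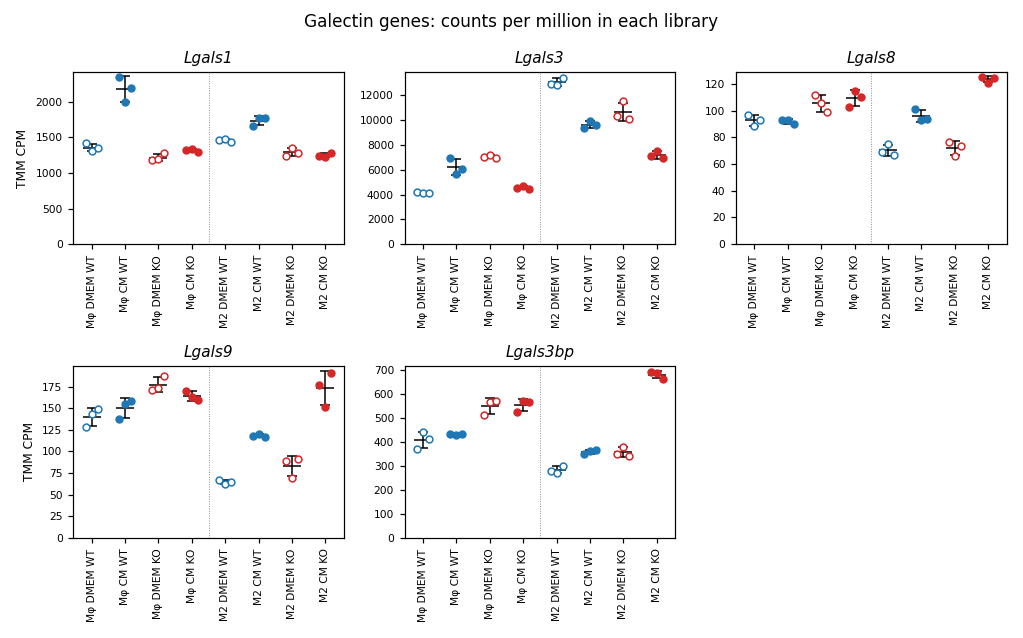
TMM-scaled CPM (y axis, from 0) of the 5 genes of the galectin group in each of the 24 libraries, by group (x axis; CM is MPNST-CM); open points are DMEM, filled points MPNST-CM, blue WT and red KO, and bars give the mean ± SD of 3 libraries. Lgals3 runs from 4106 CPM in a WT Mφ library to 13393 CPM in a WT M2 library, and Lgals9, Lgals8 and Lgals3bp are lower in M2 than in Mφ cells in DMEM and higher in M2 cells in MPNST-CM than in DMEM.

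Lgals8 and Lgals9 encode tandem-repeat galectins, with a pair of sugar-binding domains on one chain. Galectin-8 marks ruptured vesicles for autophagy, and galectin-9 is the ligand of TIM-3, the product of Havcr2. Lgals3bp encodes a secreted glycoprotein bound by galectin-3 that is a known interferon-induced gene, as is Lgals9. The 3 genes moved alike over the 8 group means, with Pearson's r of 0.920 for Lgals8 with Lgals9, 0.915 for Lgals8 with Lgals3bp and 0.885 for Lgals9 with Lgals3bp, a description over 8 points that share their libraries.

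Lgals8 stood at 97.0, 88.7 and 93.3 CPM in WT Mφ in DMEM and at 92.7, 92.9 and 89.7 CPM in MPNST-CM. KO Mφ held 112, 106 and 99.2 CPM in DMEM and 103, 115 and 110.3 CPM in MPNST-CM. Mφ of neither genotype passed the test for a response (WT -0.02 ± 0.077, adjusted p = 0.902, and KO 0.05 ± 0.077, adjusted p = 0.681). In M2 cells the gene did respond: WT rose from 69.0, 75.0 and 67.0 to 101, 93.1 and 94.1 CPM (0.45 ± 0.078, adjusted p = 7.69e-05) and KO from 76.2, 66.1 and 73.2 to 125, 121 and 125 CPM (0.78 ± 0.078, adjusted p = 5.34e-09). The rise was larger in KO M2 cells (0.33 ± 0.11, adjusted p = 0.0335), but this call was lost when any of 10 of the 12 M2 libraries was left out, and with batch 2 in the fit its sign turned. The M2 response exceeded the Mφ response in WT (0.47 ± 0.11, adjusted p = 0.00467) and KO cells (0.73 ± 0.11, adjusted p = 2.24e-05). In DMEM, M2 cells held less Lgals8 than Mφ in WT (-0.40 ± 0.078, adjusted p = 0.000163) and in KO (-0.56 ± 0.078, adjusted p = 2.9e-06). In MPNST-CM, KO exceeded WT in Mφ (0.25 ± 0.077, adjusted p = 0.011) and in M2 cells (0.36 ± 0.077, adjusted p = 0.000542). The Mφ call was lost in 6 of 14 alternatives. Among them were the fit without KO replicate 2 in MPNST-CM (adjusted p = 0.0619) and scaling by total counts (adjusted p = 0.105).

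Lgals9 showed the widest swing of the tandem-repeat galectins. Mφ held 128, 143 and 149 CPM (WT, DMEM), 137, 155 and 159 CPM (WT, MPNST-CM), 171, 173 and 188 CPM (KO, DMEM) and 171, 163 and 159.8 CPM (KO, MPNST-CM). Medium did not move it past the threshold in Mφ of either genotype (WT 0.10 ± 0.096, adjusted p = 0.511, and KO -0.11 ± 0.095, adjusted p = 0.426). M2 cells in DMEM stood lower, at 66.6, 61.7 and 64.9 CPM in WT, 2.18-fold below Mφ (-1.12 ± 0.099, adjusted p = 5.72e-10), and at 89.5, 69.2 and 90.7 CPM in KO, 2.13-fold below Mφ (-1.09 ± 0.098, adjusted p = 1.17e-09). MPNST-CM raised it in M2 cells to 118, 119.8 and 117 CPM in WT, 1.84-fold (0.88 ± 0.099, adjusted p = 1.11e-07), and to 177, 152 and 190.5 CPM in KO, 2.08-fold (1.06 ± 0.098, adjusted p = 1.26e-09). The KO and WT rises did not differ by the test (0.18 ± 0.14, adjusted p = 0.423), and both exceeded the Mφ response (WT 0.78 ± 0.14, adjusted p = 0.000289, and KO 1.17 ± 0.14, adjusted p = 5e-07). After MPNST-CM, KO M2 cells and KO Mφ no longer differed by the test (0.074 ± 0.095, adjusted p = 0.749), while WT M2 cells remained below WT Mφ (-0.35 ± 0.096, adjusted p = 0.00828). The latter call was lost when these WT groups were fitted alone. KO exceeded WT in DMEM in Mφ (0.34 ± 0.096, adjusted p = 0.0132) and M2 cells (0.37 ± 0.10, adjusted p = 0.0107) and in MPNST-CM in M2 cells (0.55 ± 0.096, adjusted p = 5.91e-05). The DMEM calls were lost without WT replicate 1 or KO replicate 3 in Mφ (adjusted p 0.0853 and 0.0754) and without KO replicate 1, KO replicate 3 or WT replicate 3 in M2 cells (adjusted p 0.0838 to 0.117). The Mφ call was also lost with scaling by total counts (adjusted p = 0.112).

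Lgals3bp was higher in KO than in WT cells in every setting, with the largest gap in M2 cells in MPNST-CM. WT Mφ held 371, 439 and 409 CPM in DMEM and 432, 428 and 433 CPM in MPNST-CM, and KO Mφ held 510.2, 566 and 569 CPM in DMEM and 523, 569 and 567 CPM in MPNST-CM. The genotypes did not overlap in either medium (DMEM 0.43 ± 0.072, adjusted p = 7.11e-05, and MPNST-CM 0.36 ± 0.072, adjusted p = 0.000244), and neither genotype passed the test for a response to MPNST-CM in Mφ (adjusted p = 0.465 and 0.921). WT M2 cells held 278, 271 and 299 CPM in DMEM and 349, 359 and 364 CPM in MPNST-CM (0.34 ± 0.073, adjusted p = 0.000873). KO M2 cells held 349, 378 and 339 CPM in DMEM and 689, 687 and 661 CPM in MPNST-CM, 1.91-fold higher (0.94 ± 0.073, adjusted p = 4.53e-11). The KO rise exceeded the WT rise by 0.60 ± 0.10 (adjusted p = 8.35e-05), a difference that was -0.018 with batch 2 in the fit. KO M2 cells in MPNST-CM were the highest group, 1.90-fold above WT M2 cells in the same medium (0.93 ± 0.073, adjusted p = 9.16e-11) and above KO Mφ (0.30 ± 0.072, adjusted p = 0.00608), although in DMEM M2 cells held less than Mφ in WT (-0.52 ± 0.073, adjusted p = 1.6e-06) and KO (-0.63 ± 0.072, adjusted p = 1.2e-07). In MPNST-CM WT M2 cells remained below WT Mφ (-0.27 ± 0.072, adjusted p = 0.00634), a call lost without WT M2 replicate 1 (adjusted p = 0.0505) and when these WT groups were fitted alone.

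S100a4, also called metastasin or fibroblast-specific protein, binds non-muscle myosin IIA (Myh9) and is expressed by motile cells, macrophages among them. In WT Mφ it rose from 3095, 3037 and 2987 CPM in DMEM to 4800.2, 3717 and 3904 CPM in MPNST-CM (0.45 ± 0.084, adjusted p = 0.000331). KO Mφ held 2432, 2509 and 2617 CPM in DMEM and 2532, 2690.4 and 2504 CPM in MPNST-CM, with no response past the threshold (0.032 ± 0.084, adjusted p = 0.824). The genotypes differed in this response (-0.41 ± 0.12, adjusted p = 0.0134), a call lost without WT replicate 1 in MPNST-CM, the library at 4800 CPM (adjusted p = 0.0559). In M2 cells the response was a fall seen in KO cells. WT M2 cells held 3451, 3219 and 3177 CPM in DMEM and 2806, 3335 and 3111 CPM in MPNST-CM (-0.09 ± 0.084, adjusted p = 0.504). KO M2 cells held 2639, 3037 and 2603 CPM in DMEM and 1866, 1876 and 1881 CPM in MPNST-CM (-0.56 ± 0.085, adjusted p = 5.79e-06), the lowest group, and the genotypes differed by -0.47 ± 0.12 (adjusted p = 0.00555). S100a4 was therefore 1.61-fold lower in KO than in WT Mφ (-0.68 ± 0.085, adjusted p = 2.87e-07) and 1.65-fold lower in KO than in WT M2 cells (-0.72 ± 0.085, adjusted p = 1.62e-07) in MPNST-CM. The DMEM differences between genotypes were smaller and near the threshold (Mφ -0.27 ± 0.084, adjusted p = 0.0258, and M2 -0.25 ± 0.084, adjusted p = 0.0415), and each was lost when any of 5 of its 6 libraries was left out. M2 cells held less S100a4 than Mφ in MPNST-CM (WT -0.43 ± 0.084, adjusted p = 0.00038, and KO -0.46 ± 0.084, adjusted p = 0.000393) and did not differ by the test in DMEM. The WT call was lost when its groups were fitted alone.

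S100a6 encodes calcyclin, which binds Cacybp and annexins and is known in proliferating cells. Of the 5 chosen S100 genes it had the largest response to MPNST-CM in KO Mφ. WT Mφ held 1249.5, 1349 and 1328 CPM in DMEM and 1444, 1462 and 1593 CPM in MPNST-CM, a small rise (0.20 ± 0.065, adjusted p = 0.0306). This call was lost in 7 of 14 alternatives (adjusted p up to 0.411). Among them were the fits without WT replicate 1 or 3 in DMEM or WT replicate 3 in MPNST-CM (adjusted p 0.061 to 0.172). KO Mφ rose from 1050.2, 1067 and 1141 CPM to 2504, 2693 and 2482 CPM, 2.36-fold (1.24 ± 0.066, adjusted p = 2.22e-14), with no overlap. The genotypes differed in the response by 1.04 ± 0.092 (adjusted p = 2.16e-09). M2 cells repeated this. WT M2 cells held 1575, 1485 and 1564 CPM in DMEM and 1490.0, 1472 and 1431 CPM in MPNST-CM (-0.074 ± 0.065, adjusted p = 0.465, 95% interval -0.21 to 0.059). KO M2 cells rose from 1268, 1186 and 1219 CPM to 2160.5, 2088 and 2225 CPM, 1.76-fold (0.82 ± 0.065, adjusted p = 7.15e-11), and the genotypes differed by 0.89 ± 0.092 (adjusted p = 3.8e-08). KO cells thus held less S100a6 than WT cells in DMEM (Mφ -0.27 ± 0.065, adjusted p = 0.00371, and M2 -0.33 ± 0.065, adjusted p = 0.000594) and more in MPNST-CM (Mφ 0.77 ± 0.065, adjusted p = 2.88e-10, and M2 0.56 ± 0.065, adjusted p = 1.2e-07). The higher level in M2 cells in DMEM (WT 0.24 ± 0.065, adjusted p = 0.00493, and KO 0.17 ± 0.065, adjusted p = 0.0475) depended in its direction on the scaling, as given above, and the KO call was also lost when any of 5 of its 6 libraries was left out. In MPNST-CM KO M2 cells held less than KO Mφ (-0.25 ± 0.065, adjusted p = 0.0115), a call lost without KO replicate 2 of either cell type (adjusted p 0.0638 and 0.0854). S100a4 and S100a6 lie in the same cluster on chromosome 3 with S100a5 between them in the RefSeq gene order, and in MPNST-CM KO cells held less of the former and more of the latter in both cell types. S100a5 had at most 3 counts in any library. The 6 monocyte markers also moved with genotype and medium: their summed level was 378 to 392 CPM in WT Mφ in DMEM and 160 to 184 CPM in MPNST-CM, against 197 to 221 and 565 to 644 CPM in KO Mφ. In M2 cells it was 458 to 473 CPM in DMEM and 168 to 226 CPM in MPNST-CM in WT, and 605 to 651 and 260 to 285 CPM in KO. The sums rested mostly on Ccr2, Vcan and Fn1 and did not describe every marker. In MPNST-CM against DMEM, 3 of the 6 were higher and 2 lower in WT Mφ, and 5 higher and none lower in KO Mφ. In M2 cells 1 was higher and 4 lower in WT, and 1 higher and 2 lower in KO, beside the shares given above for these comparisons. In the interaction of genotype and medium, 5 of the 6 passed upwards in Mφ, and 3 passed upwards and 1 downwards in M2 cells. Their part in the S100a6 values was not tested.

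**Figure D5:**
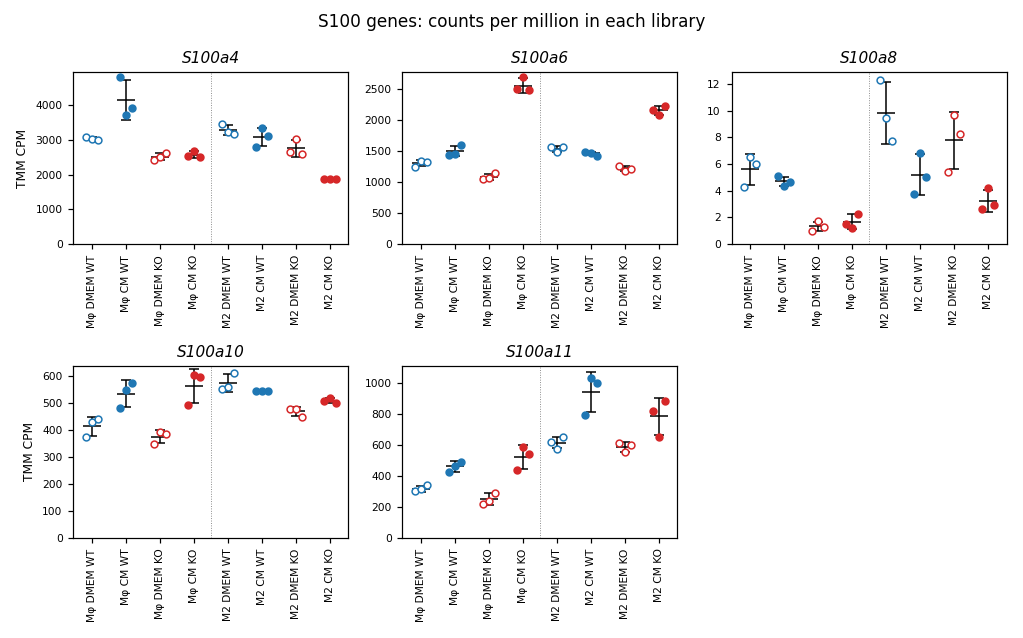
TMM-scaled CPM (y axis, from 0) of the 5 S100 genes in each of the 24 libraries, by group (x axis; CM is MPNST-CM); open points are DMEM, filled points MPNST-CM, blue WT and red KO, and bars give the mean ± SD of 3 libraries. The 6 libraries of KO cells in MPNST-CM hold 2088 to 2693 CPM of S100a6 and stand above all others, while S100a8 does not exceed 12.3 CPM.

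S100a8 forms calprotectin with S100a9. Both were rare here, with 8 to 82 counts of S100a8 and 2 to 39 counts of S100a9 per library, so their values carry wide counting error. S100a8 stood at 4.29, 6.51 and 6.04 CPM in WT Mφ in DMEM and at 1.00, 1.70 and 1.32 CPM in KO Mφ, 4.17-fold lower (-2.06 ± 0.32, adjusted p = 3.17e-05). In MPNST-CM WT Mφ held 5.09, 4.38 and 4.64 CPM and KO Mφ 1.498, 1.22 and 2.29 CPM, 2.81-fold lower (-1.49 ± 0.31, adjusted p = 0.000402). Both genotype gaps in Mφ left no overlap. M2 cells in DMEM held the most, 12.3, 9.46 and 7.72 CPM in WT and 5.40, 9.64 and 8.27 CPM in KO, above their Mφ (WT 0.80 ± 0.25, adjusted p = 0.0138, and KO 2.53 ± 0.32, adjusted p = 4.29e-07). In MPNST-CM WT M2 cells held 3.77, 6.83 and 5.03 CPM and KO M2 cells 2.65, 4.18 and 2.91 CPM, both lower than in DMEM (WT -0.91 ± 0.26, adjusted p = 0.00968, and KO -1.25 ± 0.27, adjusted p = 0.000633). The WT M2 calls were each lost without 1 of 2 libraries: M2 in MPNST-CM replicate 1 or M2 in DMEM replicate 2 for the medium (adjusted p 0.0963 and 0.111), and Mφ in DMEM replicate 1 or M2 in DMEM replicate 2 for the cell type (adjusted p 0.0814 and 0.111), and the latter also with scaling by total counts (adjusted p = 0.088). In M2 cells the genotypes did not differ by the test in DMEM (-0.33 ± 0.25, adjusted p = 0.408) or MPNST-CM (-0.67 ± 0.28, adjusted p = 0.0678), although the latter passed without WT replicate 1 or KO replicate 2 (adjusted p 0.0173 and 0.039). The KO M2 fall turned to 2.66 with batch 2 in the fit, where KO M2 replicate 4 in MPNST-CM held 162 CPM. S100a9 was lower in KO cells in all 4 settings, from -1.95 ± 0.40, adjusted p = 0.000792 in Mφ in DMEM to -0.85 ± 0.26, adjusted p = 0.0251 in M2 cells in DMEM, and higher in M2 cells than in Mφ in DMEM (WT 1.70 ± 0.28, adjusted p = 1.54e-05, and KO 2.81 ± 0.37, adjusted p = 1.14e-06). In MPNST-CM it fell in M2 cells (WT -0.72 ± 0.25, adjusted p = 0.038, and KO -1.62 ± 0.32, adjusted p = 0.000184) and rose in Mφ (WT 0.84 ± 0.29, adjusted p = 0.0358, and KO 1.33 ± 0.43, adjusted p = 0.0347), where S100a8 passed in neither genotype. The neutrophil marker list, S100a9 included, also moved with these groups, from 76.0 to 85.9 CPM in KO Mφ in DMEM up to 374 to 381 CPM in WT M2 cells in DMEM, with Ngp and Camp near 0, and its part in the S100a8 values was not tested.

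S100a10, or p11, forms a heterotetramer with annexin A2 (Anxa2) at the cell surface that activates plasminogen. In Mφ it rose in MPNST-CM in WT, from 373, 428 and 439.7 to 479.9, 549 and 575 CPM (0.37 ± 0.085, adjusted p = 0.00217), and in KO, from 347, 393 and 385 to 492, 602 and 594 CPM (0.58 ± 0.085, adjusted p = 3.42e-06), and the rises did not differ by the test (0.21 ± 0.12, adjusted p = 0.241). Anxa2 rose with it in Mφ (WT 0.41 ± 0.073, adjusted p = 0.000168, and KO 0.50 ± 0.073, adjusted p = 3.55e-06). In M2 cells S100a10 held 553, 559 and 613 CPM in DMEM and 543, 543 and 546 CPM in MPNST-CM in WT (-0.079 ± 0.085, adjusted p = 0.57). It held 479, 479 and 449 and 506, 518 and 501 CPM in KO (0.12 ± 0.085, adjusted p = 0.309). Here the pair parted, since Anxa2 fell in MPNST-CM in M2 cells (WT -0.46 ± 0.073, adjusted p = 2.42e-05, and KO -0.51 ± 0.073, adjusted p = 2.67e-06). In DMEM both members of the complex were higher in M2 cells than in Mφ: S100a10 by 0.47 ± 0.085 in WT (adjusted p = 5.76e-05) and 0.32 ± 0.085 in KO (adjusted p = 0.00474), and Anxa2 by 1.32 ± 0.074 and 1.15 ± 0.074. Scaled by total counts, the S100a10 differences were 0.20 and 0.14 and did not pass. KO M2 cells in DMEM held less S100a10 than WT M2 cells (-0.29 ± 0.085, adjusted p = 0.0168), a call lost without KO replicate 3 or WT replicate 4 (adjusted p 0.0662 and 0.0992). S100a10 had the narrowest range of the members: group means ran from 375 to 575 CPM, and no neighbouring groups in that order differed by the test.

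S100a11, or calgizzarin, binds annexin A1 and takes part in plasma membrane repair and growth control. It rose in 8 of the 12 pairwise comparisons and fell in none. MPNST-CM raised it in WT Mφ from 299, 313 and 338 to 426, 462 and 492 CPM, 1.45-fold (0.54 ± 0.12, adjusted p = 0.00197), and in KO Mφ from 220.4, 239 and 289.7 to 436, 586 and 538 CPM, 2.08-fold (1.06 ± 0.12, adjusted p = 1.1e-07). M2 cells started higher, at 618, 574 and 647 CPM in WT and 608, 551 and 599 CPM in KO, 1.94-fold and 2.35-fold above Mφ (WT 0.95 ± 0.12, adjusted p = 5.26e-07, and KO 1.23 ± 0.12, adjusted p = 1.2e-08). MPNST-CM took them to 795, 1029 and 999.5 CPM in WT (0.62 ± 0.12, adjusted p = 0.000331) and 820.5, 649 and 883 CPM in KO (0.42 ± 0.12, adjusted p = 0.00719). The KO M2 call was lost without KO replicate 3 in MPNST-CM (adjusted p = 0.0565). The larger response of KO Mφ (0.52 ± 0.17, adjusted p = 0.0315) was lost when any of 8 of the 12 Mφ libraries was left out. IL-4 and MPNST-CM thus each went with more S100a11, and WT M2 cells in MPNST-CM held the most of all groups, 941 ± 127 CPM (mean ± SD). No genotype difference passed within a setting (adjusted p 0.0544 to 0.773). In Mφ in DMEM, however, the KO level (-0.34 ± 0.12 on the log2 scale, adjusted p = 0.0544) was lower past the threshold in 7 alternatives: with DESeq2 (adjusted p = 0.0399), its size factors (0.0473), scaling by total counts (0.0141), no filter on low counts (0.00174), the replicate block (0.0208), the compared groups alone (0.0167) and without KO replicate 3 (0.0159). A KO level below WT also passed in M2 cells in MPNST-CM without WT replicate 1 or KO replicate 3 (adjusted p 0.00779 and 0.043).

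Known partners of these proteins were counted in the same tests. Of 13 tested S100 partners and receptors, 8 were higher and none lower in WT M2 cells than in WT Mφ in DMEM, and 8 were higher and 2 lower in KO, where 19.1% and 18.1% of all genes passed upwards and downwards in WT and 15.6% and 12.9% in KO. The median of that list was 0.52 in WT, beside -0.035 over all genes. The largest called differences in WT were in Plaur, the urokinase receptor (3.23 ± 0.28), Cd36, a scavenger receptor that binds S100a8/S100a9 (3.15 ± 0.11), Anxa1 (1.54 ± 0.36) and Anxa2. In MPNST-CM against DMEM, 3 of the 13 rose and 2 fell in WT Mφ, 6 and 2 in KO Mφ, and 3 and 6 in M2 cells of either genotype. All-gene shares were 11.3% and 9.96% in WT Mφ, 14.8% and 18.1% in KO Mφ, 11.2% and 13.3% in WT M2 and 16.7% and 20.2% in KO M2 cells. Anxa5 fell in WT Mφ (-0.42 ± 0.11), KO Mφ (-1.37 ± 0.11) and KO M2 cells (-1.37 ± 0.11), and also in WT M2 cells (-0.45 ± 0.11), a value named after it was seen. In KO M2 cells in MPNST-CM, 6 of the 13 were lower than in WT and 1 higher, beside 16.8% and 17.2% of all genes. All 8 annexins of a further list were tested. Of these, Anxa1, Anxa2, Anxa5, Anxa6 and Anxa11 are also among the S100 partners and receptors, so the counts share genes. In DMEM 6 were higher and none lower in WT M2 cells than in Mφ, and 5 were higher and 1 lower in KO, beside the all-gene shares given for this comparison.

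Among 22 tested galectin ligands, receptors and glycan-branching enzymes, 12 were higher and 5 lower in M2 cells than in Mφ in DMEM, in WT and in KO, beside 19.1% and 18.1% of all genes in WT and 15.6% and 12.9% in KO. Itgb2, the integrin β2 chain bound by galectins, led with 2.13 ± 0.085 in WT and 1.95 ± 0.085 in KO. In MPNST-CM against DMEM, 3 rose and 9 fell in WT Mφ, 8 and 6 in KO Mφ, 2 and 10 in WT M2 cells, and 5 and 9 in KO M2 cells, beside the shares given above for these 4 comparisons. Spn, the heavily glycosylated CD43, fell in all 4, from -1.05 ± 0.11 in WT Mφ to -3.01 ± 0.14 in KO M2 cells. Havcr2, which encodes TIM-3, rose in KO Mφ (1.53 ± 0.15) and in KO M2 cells (1.55 ± 0.15), and also in WT M2 cells (0.96 ± 0.14), a value named after it was seen, and Lgals9 rose in the M2 cells of both genotypes. KO against WT gave 10 higher and 3 lower in Mφ and 4 higher and 5 lower in M2 cells in MPNST-CM, and 4 higher and 6 lower in Mφ and 3 higher and 5 lower in M2 cells in DMEM. Of all genes, 19.1% and 19.2% were higher and lower in Mφ and 17.2% and 16.8% in M2 cells in MPNST-CM, and 8.64% and 7.97% in Mφ and 8.56% and 7.87% in M2 cells in DMEM.

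Few other genes of both families were tested. Of 8 other galectin genes, 6 were in the table and only Lgals4 was tested, at up to 14 counts, with no call in any comparison. Of 14 other S100 genes and binding partners named for them, 5 passed the filter: S100a1 (74.8 to 134 CPM), S100a13 (87.3 to 147 CPM), S100pbp (37.3 to 62.5 CPM), S100a9 and S100g. S100a13 fell in MPNST-CM in all 4 backgrounds, between -0.27 ± 0.092 in WT Mφ and -0.46 ± 0.093 in KO Mφ, opposite to S100a11. S100a1 fell in MPNST-CM in KO Mφ (-0.34 ± 0.11), WT M2 (-0.32 ± 0.11) and KO M2 cells (-0.67 ± 0.11). The processed copies Lgals1-ps1 and S100a11-ps held no count and at most 9 counts per library, against at least 8265 for Lgals1 and 1763 for S100a11.

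Likeness was measured as Pearson's r over the 8 group means of log2 CPM among 2657 genes with a mean of at least 10 CPM and a range of at least 1 log2 unit, as a description over points that share their libraries. The closest genes were Rtp4 (r = 0.99) and Tasl (0.98) for Lgals9, Ifi44 and Bst2 (both 0.97) for Lgals3bp, and Plagl2 (0.98) and Sh3bp1 (0.96) for Lgals8. For Lgals3 they were Vat1 (0.98) and Ctsz (0.97), and for Lgals1 Ppa1 (0.97) and Lrp8 (0.96). On the S100 side, Uqcrq (0.98) was closest to S100a6, Ruvbl1 (0.95) to S100a4, and Tmed5 (0.98) and Tspan3 (0.97) to S100a11. Tagln2 (0.96) and Bcl2 (0.94) were closest to S100a10, and Add3 and Afdn (both 0.95) to S100a8. Over all members, 19 of 70 neighbouring pairs in the order of group means differed by the test, 4 of them for Lgals3bp and 3 each for Lgals3 and S100a6.

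Batch 2 held 1 further library in each of 3 groups, compared here on CPM scaled over all 27 libraries. Of its 30 member values, 25 lay outside the range of the 3 batch 1 libraries of the same group. The KO M2 library in MPNST-CM held 237 CPM of Lgals3bp against 660 to 689 CPM in batch 1, 75.8 CPM of Lgals8 against 120 to 125 CPM, and 3553 CPM of S100a4 against 1865 to 1877 CPM. The KO M2 library in DMEM held 706 CPM of Lgals3bp against 333 to 370 CPM, 159 CPM of Lgals8 against 64.8 to 74.9 CPM, and 1334 CPM of S100a4 against 2559 to 2975 CPM. Lgals3 stood at 9913 CPM in the MPNST-CM library against 6898 to 7453 CPM, and at 5542 CPM in the DMEM library against 9908 to 11278 CPM. Over all 10 members, 9 values of the MPNST-CM library and 8 of the DMEM library lay outside their own group's batch 1 range on the side of the batch 1 level of the other medium. The exceptions were S100a10 in both and S100a11 in the DMEM library. In the MPNST-CM library, Lgals3, Lgals9 and S100a11 lay inside the other medium's range. Lgals1, Lgals3bp, S100a4 and S100a8 lay beyond it, and Lgals8 and S100a6 short of it. In the DMEM library, Lgals1, Lgals3, Lgals8, Lgals9, Lgals3bp and S100a4 lay beyond it, and S100a6 and S100a8 short of it. For Lgals1 the batch 1 ranges of the media overlapped. The labels were used as given, and an exchange of the 2 libraries was not tested. Trap1 had 0 and 2 counts in them. The WT Mφ library in DMEM held 252 counts of Trap1 and lay within the batch 1 range for Lgals1, Lgals9, S100a10 and S100a11.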

How the data were processed

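Gene-level 3′ RNA sequencing counts of 27 libraries were used as deposited. Per the study's methods and the processing notes, the authors trimmed reads with Trimmomatic, checked them with FastQC, aligned them with HISAT2 and counted reads per gene with featureCounts. The file and the notes name mm39 as the build, whereas the methods name another, and versions were not given in the sources used here. A further 5 columns matched no sample and were not used.

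The 24 batch 1 libraries, 3 in each of 8 groups, entered 1 fit in edgeR 4.0.16 (R 4.3.3): filterByExpr by group, TMM scaling, robust quasi-likelihood fits and tests of each contrast, with Benjamini-Hochberg adjustment over all tested genes at 0.05. SE was the absolute log2 fold change over the square root of F. The script was tested on simulated data. Total counts limit the precision, and low counts such as those of S100a8 give wide errors. Alternatives were DESeq2 1.42.0, its size factors, no filter, the compared groups alone, all 27 libraries with and without batch, a replicate block, leaving out each library and, added after seeing the data, scaling by total counts. Tests of cell type by medium were added likewise. All replicate pairs differed by more than sampling noise.

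Named were the 10 members, S100a9, Anxa2, Trap1, at most 4 genes per list and comparison with the largest called change and at least 10 CPM, and the 2 genes most like each member, of which some are not reported here. Lists covered other galectins, other S100 genes, S100 partners, galectin ligands, annexins and cell type markers. Members and lists were chosen with earlier results of these data known.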

Additional observations from a re-analysis of the deposited data

Results flagged for a closer look

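Several responses to MPNST-CM differed between genotypes or cell types by an interaction test (log2 differences, edgeR quasi-likelihood, Benjamini-Hochberg adjusted p under 0.05). KO minus WT in Mφ was -0.57 for Lgals1, -1.22 for Lgals3, -0.41 for S100a4, 1.04 for S100a6 and 0.52 for S100a11. KO minus WT in M2 cells was -0.30 for Lgals1, 0.33 for Lgals8, 0.60 for Lgals3bp, -0.47 for S100a4 and 0.89 for S100a6. M2 minus Mφ in WT was -0.43 for Lgals1, -1.03 for Lgals3, 0.47 for Lgals8, 0.78 for Lgals9, -0.54 for S100a4 and -0.45 for S100a10. M2 minus Mφ in KO was 0.73 for Lgals8, 1.17 for Lgals9, 0.92 for Lgals3bp, -0.59 for S100a4, -0.42 for S100a6, -1.56 for S100a8, -0.47 for S100a10 and -0.64 for S100a11.

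Batch 2 libraries stood apart from the 3 batch 1 libraries of their group by Dixon's test for 10 of 30 values. The KO M2 library in MPNST-CM did so at 1748 CPM of Lgals1, 75.8 of Lgals8, 237 of Lgals3bp, 3553 of S100a4 and 162 of S100a8. The KO M2 library in DMEM did so at 159 CPM of Lgals8, 201 of Lgals9, 706 of Lgals3bp and 1772 of S100a6. The WT Mφ library in DMEM did so at 22.2 CPM of S100a8. Chance would flag about 1.5 of 30 independent values, counting any library of a group and not only that of batch 2. The 30 values come from 10 genes in 3 libraries and are not independent, so the count of 10 is a description.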

How the results depend on the processing

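Adding the 3 batch 2 libraries changed most. They are 1 of WT Mφ in DMEM and 1 of KO M2 cells in each medium. All other groups kept their libraries, and comparisons among them changed only through the shared fit. Without and with batch as a covariate, called members fell to 2 and 2 for MPNST-CM in WT M2 cells, 1 and 1 in KO M2 cells, 1 and 1 for KO against WT in Mφ in DMEM, 4 and 4 in Mφ in MPNST-CM, 1 and 1 in M2 cells in DMEM, and 2 and 0 in M2 cells in MPNST-CM. For M2 against Mφ they were 4 and 4 (DMEM, WT), 1 and 2 (DMEM, KO), 2 and 2 (MPNST-CM, WT) and 2 and 2 (MPNST-CM, KO), for the genotype interactions 2 and 2 (Mφ) and 0 and 0 (M2), and for the cell type interactions 1 and 1 (WT) and 2 and 2 (KO). Neighbouring groups that differed fell from 19 to 5 and 2. Of the 160 member values, 17 and 18 changed sign, of which 12 and 14 passed in neither fit. Among those that passed in either, signs turned for S100a8 (MPNST-CM in KO M2, 2.66 and 0.52; M2 against Mφ in DMEM in WT, -0.026 without the covariate; cell type interaction in KO, 2.29 and 0.16) and, in the M2 genotype interaction, for Lgals8 (-0.24 and -0.19) and Lgals3bp (-0.018 and -0.057). Over all genes, 15 comparisons moved by over 1.5 times, to 180 to 3097 and 269 to 3297 calls. The cause was not tested. With the compared groups alone, 2 members passed for M2 against Mφ in MPNST-CM in WT, and all-gene calls were 1898 (MPNST-CM in WT Mφ) and 1941. Scaling by total counts turned M2 against Mφ in DMEM for Lgals1 (-0.17, WT) and S100a6 (-0.038, WT, and -0.011, KO), and 10 values that passed under neither scaling.

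Leaving out 1 library gave 3 to 7 called members for KO against WT in M2 cells in DMEM and 3 to 5 for each genotype interaction. Over the 160 member tests, 155 kept their side of the threshold under DESeq2 and 158 under its size factors. The replicate block kept 155, gained 4 and lost 1 (S100a10, KO against WT in M2 cells in DMEM). In batch 1 only a WT M2 library in DMEM is numbered 4, so the block fitted that library on its own. The S100a10 call was also lost when that library was left out (adjusted p = 0.0992). Replicate numbers were not taken as pairs, since not every pair correlated above 0.1, a rule that true pairs can also fail. Deviations correlated at a mean of 0.107 over 77 pairs with the same number (-0.214 to 0.521) and -0.045 over 175 others. WT M2 cells in DMEM are numbered 2 to 4 in batch 1 and the other groups 1 to 3, so equal numbers need not mark one set. Whether libraries were paired cannot be told from these values. A hint from the data, not the design, is that 14 of 24 libraries correlated best with their own number.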
